A study of Homo sapiens with 12 samples.

Results

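The genes described here are the human zinc finger genes named ZNF that lie outside chromosomes 19, X and Y. They were taken as the rows of the count table whose symbol begins with ZNF and whose chromosome is an autosome other than 19, holding 10 counts or more in 6 or more of 12 libraries. Of 256 such rows, 202 passed the count minimum and are the members, among 13093 genes tested in all from 19901 gene rows. They lie on 19 chromosomes, with 25 on chromosome 16, 24 on chromosome 7 and 18 on chromosome 1. The RNA-Seq libraries come from HCT116 KAP1-dTAG cells, derived from a colorectal carcinoma, whose TRIM28 gene encodes KAP1 fused to a degradation tag. The cells are 1 clone, named D5 in the labels, and every group carries the tag. All cells went 48 h without serum and received dTAG, a ligand that sends the tagged protein to degradation, or its solvent DMSO for the last 8 h. By the study's account of this time point most KAP1 protein was lost and some remained, so the depletion is partial. Serum was then given for 30 min or withheld, which makes 4 groups of 3 libraries, named by treatment and serum time: DMSO-S0 and DMSO-S30, and with depletion dTAG-S0 and dTAG-S30 (S0 stands for withheld serum).

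C2H2 zinc fingers are small folds held by a zinc ion, and strings of them read DNA sequence, or in some proteins RNA. Many ZNF proteins also carry a KRAB domain, through which they bind KAP1, and KAP1 in turn brings SETDB1 and HP1 proteins that form repressive chromatin, above all on transposable elements. The KRAB genes are densest on chromosome 19, and the genes outside it hold, beside further KRAB genes, ZNF proteins with other jobs such as ribosome assembly, RNA processing, corepressor complexes and promoter binding. Because KAP1 works with KRAB proteins and was depleted here at the protein level, the comparisons ask how the genes of its partners and their relatives respond to serum and to 8 h of dTAG.

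Each library held 18658747 to 23861254 counts in gene rows, and the members took 1.01% to 1.06% of these without serum and 0.931% to 0.971% with serum. ERCC spike-ins took 8.72% to 9.37% of all counts without serum and 7.97% to 8.95% with it. Of 6 markers fixed for colorectal epithelium, EPCAM, KRT8, KRT18 and CDH1 lay between 79.5 and 593 CPM, CDX2 between 11.9 and 16.7 CPM, and VIL1 at 0.332 CPM or less. Of 8 markers of blood, endothelium and fibroblasts, COL1A1 lay between 12.01 and 84.0 CPM and the other 7 at 2.53 CPM or less, with COL1A2 and DCN at 2 counts or fewer in every library. Their summed level was 17.0 to 18.7 CPM in DMSO-S0 and 79.7 to 86.5 CPM in DMSO-S30, and 14.9 to 17.6 and 66.8 to 79.5 CPM in the dTAG groups. This rise with serum came with the serum effects below, and its part in them was not tested. In bulk RNA, fewer cells of a type and less RNA per cell cannot be told apart. TRIM28 RNA, which the tag leaves in place, was 85.5 to 100.2 CPM without serum and 103.0 to 120.4 CPM with it over both treatments.

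The members differed widely in level. Per kb of gene, introns included, their mean counts ran from 0.0356 to 354 with a median of 26.2, beside a median of 21.0 for all genes tested. The 3 highest were ZNF770 with 353.9 counts per kb, ZNF24, a SCAN-domain factor, with 321.5, and ZNF281, a GC-box-binding factor, with 287.2. The 3 lowest were ZNF521 with 0.0356 counts per kb, its relative ZNF423 with 0.132, both long multi-finger partners of EBF factors, and ZNF385C with 0.232. Just inside the count minimum stood ZNF521 and ZNF343, each with 10 or more counts in 8 libraries and mean counts of 10.3 and 12.8. Just outside stood ZNF705EP with 10 or more counts in 3 libraries and a mean of 8.08. All but 3 members (ZNF454, ZNF521 and ZNF343) had 10 or more counts in all 12 libraries.

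Of the 54 rows that did not pass, 35 are not covered by any other row on their strand, and none of the 35 exceeded a mean of 8.08 counts. A further 18 are covered over at least 80% of their length by other rows on the same strand, and none of these exceeded a mean of 4.67 counts, and the remaining row, ZNF511-PRAP1, is covered over 21.2%. The 18 include ZNF10, a classical KRAB repressor gene, with a mean of 0 counts, ZNF410, a regulator of the CHD4 gene, with 3.50, ZNF174 with 0, ZNF655 with 2.50 and ZNF664 with 0.667. Over the whole table, 588 rows wholly covered on the same strand were at 0 in every library in 90.6% of cases and 1 of them passed, whereas of 581 rows wholly covered only on the opposite strand 17.7% were at 0 and 263 passed. A count of 0 in such a covered row is therefore no measure of the gene's RNA. Among the members, 16 have some cover on their own strand and 8 are covered over at least 50% of their length: ZNF670-ZNF695, ZNF775, ZNF395, ZNF705A, ZNF268, ZNF280D, ZNF286A-TBC1D26 and ZNF343. Their values may hold part of their reads only.

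**Figure D1:**
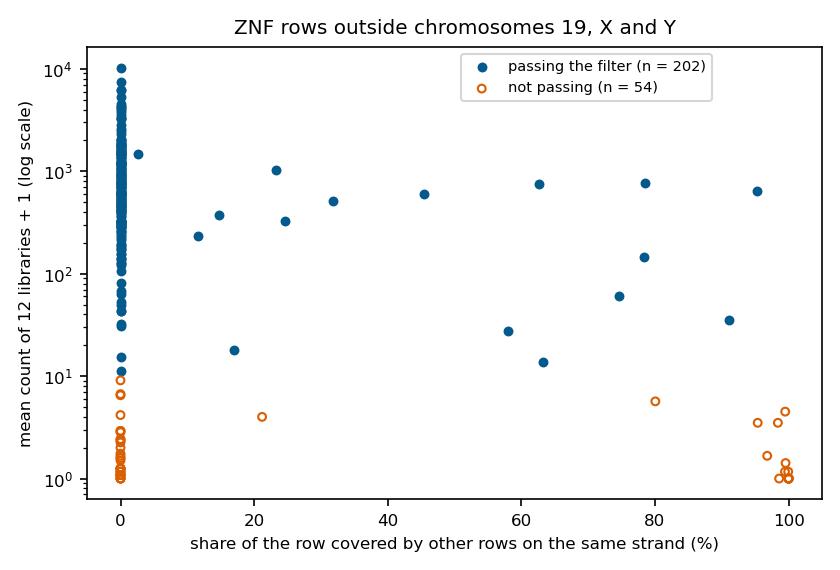
Mean count over 12 libraries plus 1 (log scale) against the share of each row that other rows cover on the same strand, in percent, for the 202 members (filled) and the 54 rows that did not pass (open). The 10 rows covered over their whole length sit at the bottom right, the members ZNF395 (95.3% covered) and ZNF775 (91.1%) have 634 and 34 counts, and uncovered rows reach 10284 counts.

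Protein classes come from letter patterns typical of the KRAB box and of the C2H2 finger in the translated canonical transcript. By these, 67 members are KRAB-like (both patterns), 125 match the finger pattern alone (fingers only), 9 have no finger match (class neither) and 1 (ZNF286B) has no translated transcript. A protein with the KRAB pattern but no finger match would also be placed among the 9. Of the 9, ZNF862 and ZNF670-ZNF695 hold the KRAB pattern in at least 1 transcript. Fingers only does not mean that other domains are absent. The class holds ZNF394, listed below as a KRAB gene, the SCAN-domain genes ZNF24 and ZNF165 and the BTB-domain gene ZNF131. How many KRAB genes the pattern misses was not tested. When any transcript of a gene may hold the KRAB pattern, 71 do. The 9 without a finger match also include ZNF703 and ZNF503, whose proteins carry a divergent zinc finger, and the helicase-like ZNFX1. In all, 71 members lie in 15 clusters, each a run of at least 3 members whose starts are no more than 500 kb apart.

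Serum lowered more members than it raised. Under DMSO 10 of 202 members rose and 49 fell at an edgeR adjusted p under 0.05, where 9.18% of all genes tested rose and 17.1% fell (26.3% in either direction). Under dTAG 8 rose and 61 fell, where 9.09% of all genes rose and 15.4% fell (24.4% in either direction). The 8 rises became 14, 15 and 15 without DMSO-S0 replicates 1, 2 and 3 and 14 without DMSO-S30 replicate 1. The median log2 fold change of the members was -0.11 under DMSO, beside -0.07 for all genes, and -0.12 under dTAG, beside -0.06. Most changes were small: 4 called members under DMSO and 13 under dTAG passed 1.5-fold, and 0 and 2 passed 2-fold. The split depended on scaling, with 18 higher and 33 lower under DMSO and 17 and 35 under dTAG under TMM scaling, 16 and 34, and 15 and 38, in DESeq2, and 10 and 16, and 7 and 20, with library sizes from the ERCC total. The members' medians stayed below 0 and below those of all genes under these settings. Library by library, the median member stood at -0.10, -0.13 and -0.10 in the DMSO-S30 libraries relative to the mean of DMSO-S0, and at -0.10, -0.11 and -0.11 in dTAG-S30 relative to dTAG-S0, on the log2 scale. The 3 control libraries themselves ranged from -0.02 to 0.01 and from -0.01 to 0.00, so the groups did not overlap.

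The 2 serum comparisons share no library, but both come from the 1 fit to all 12 libraries. Of the members that rose, 7 were called in both treatments, which is 70.0% of the 10 under DMSO and 87.5% of the 8 under dTAG. Of those that fell, 39 were called in both, 79.6% of the 49 and 63.9% of the 61. All 59 members called under DMSO had the same sign under dTAG, and 68 of the 69 called under dTAG had the same sign under DMSO. Across the 202 members the 2 sets of fold changes had a Pearson correlation of 0.75 and a Spearman correlation of 0.80. Over all genes tested the Pearson correlation was higher, at 0.88. These values describe genes, which are not independent replicates. The exception in sign was ZNF343, a low-count member with 0.01 and -1.30 and a mean of 12.8 counts.

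**Figure D2:**
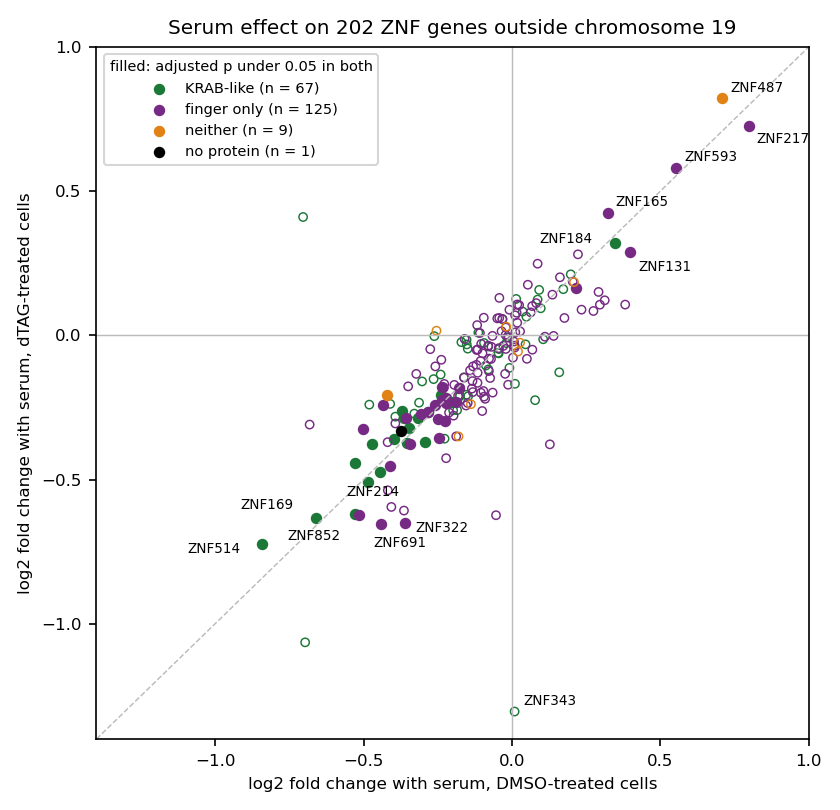
Log2 fold change with serum under DMSO (x axis) against that under dTAG (y axis) for each of 202 members, coloured by protein class and filled where both comparisons passed an adjusted p of 0.05. Most points follow the diagonal, with ZNF487, ZNF217 and ZNF593 at the upper end and ZNF514 and ZNF169 at the lower, while ZNF343 lies off it at 0.01 and -1.30.

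The largest rises called in both treatments were those of ZNF487, ZNF217, ZNF593, ZNF165, ZNF131 and ZNF184, and ZNF644 was the seventh gene called in both. The largest rises, like the falls below, were picked among members whose libraries with and without serum did not overlap in either treatment. That separation was therefore a condition of the choice. ZNF217 (ENSG00000171940.13, chr20:53567065-53609907, minus strand) encodes a partner of the CtBP corepressor and is amplified in several carcinomas. It had 87.8, 84.9 and 88.5 CPM in the DMSO-S0 libraries, 152, 146 and 152 in DMSO-S30, 90.04, 87.3 and 94.98 in dTAG-S0 and 143, 149.9 and 159 in dTAG-S30. Every library with serum exceeded every library without it, and the treatments overlapped. The log2 fold change was 0.80 ± 0.059 (SE) under DMSO (edgeR adjusted p = 2.74e-11) and 0.73 ± 0.057 (SE) under dTAG (adjusted p = 1.06e-10). ZNF487 (ENSG00000243660.9, chr10:43436841-43483179, plus strand), whose canonical protein matched no finger pattern, had 12.1, 11.4 and 11.4 CPM in the DMSO-S0 libraries, 19.6, 17.9 and 19.1 in DMSO-S30, 9.404, 11.2 and 9.58 in dTAG-S0 and 17.9, 16.9 and 18.9 in dTAG-S30. The serum libraries again stood apart from the others, with log2 fold changes of 0.71 ± 0.099 (SE) under DMSO (edgeR adjusted p = 4.13e-06) and 0.82 ± 0.097 (SE) under dTAG (adjusted p = 2.55e-07).

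ZNF593 (ENSG00000142684.8, chr1:26169871-26170873, plus strand) encodes the counterpart of a yeast factor for assembly of the large ribosomal subunit. It had 9.28, 9.04 and 9.52 CPM in the DMSO-S0 libraries, 12.2, 12.03 and 15.5 in DMSO-S30, 8.28, 8.79 and 9.29 in dTAG-S0 and 11.4, 13.3 and 15.5 in dTAG-S30. The lowest value with serum lay above the highest without it in both treatments, and replicate 3 was the highest of both serum groups. Log2 fold changes were 0.55 ± 0.12 (SE) under DMSO (edgeR adjusted p = 0.00138) and 0.58 ± 0.12 (SE) under dTAG (adjusted p = 0.000661). The gene lies wholly under ZNF593OS on the opposite strand, a row with a mean of 1.92 counts.

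ZNF131 (ENSG00000172262.11, chr5:43065176-43192021, plus strand), a BTB-domain factor, had 185, 189 and 186 CPM in the DMSO-S0 libraries, 231, 248 and 259 in DMSO-S30, 177, 183 and 178 in dTAG-S0 and 232, 205 and 221 in dTAG-S30. ZNF184 (ENSG00000096654.15, chr6:27450743-27473118, minus strand) was the one KRAB-like gene that rose, with 49.6, 55.3 and 46.1 CPM in the DMSO-S0 libraries, 59.001, 64.7 and 65.9 in DMSO-S30, 43.7, 47.5 and 47.3 in dTAG-S0 and 56.5, 58.6 and 59.01 in dTAG-S30. ZNF165 (ENSG00000197279.3, chr6:28080975-28089563, plus strand), a SCAN-domain gene known as a cancer-testis antigen, had 21.1, 22.2 and 19.2 CPM in the DMSO-S0 libraries, 27.98, 24.3 and 26.6 in DMSO-S30, 21.5, 21.5 and 22.9 in dTAG-S0 and 29.9, 31.3 and 26.9 in dTAG-S30. In all 3 genes the libraries with serum lay above those without. Log2 fold changes under DMSO and under dTAG were 0.40 and 0.29 for ZNF131 (edgeR adjusted p = 1.4e-05 and 0.000639), 0.35 and 0.32 for ZNF184 (adjusted p = 0.000649 and 0.00134) and 0.32 and 0.43 for ZNF165 (adjusted p = 0.00834 and 0.000459). Without DMSO-S0 replicate 3 the ZNF165 call under DMSO was lost (edgeR adjusted p = 0.0800).

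**Figure D3:**
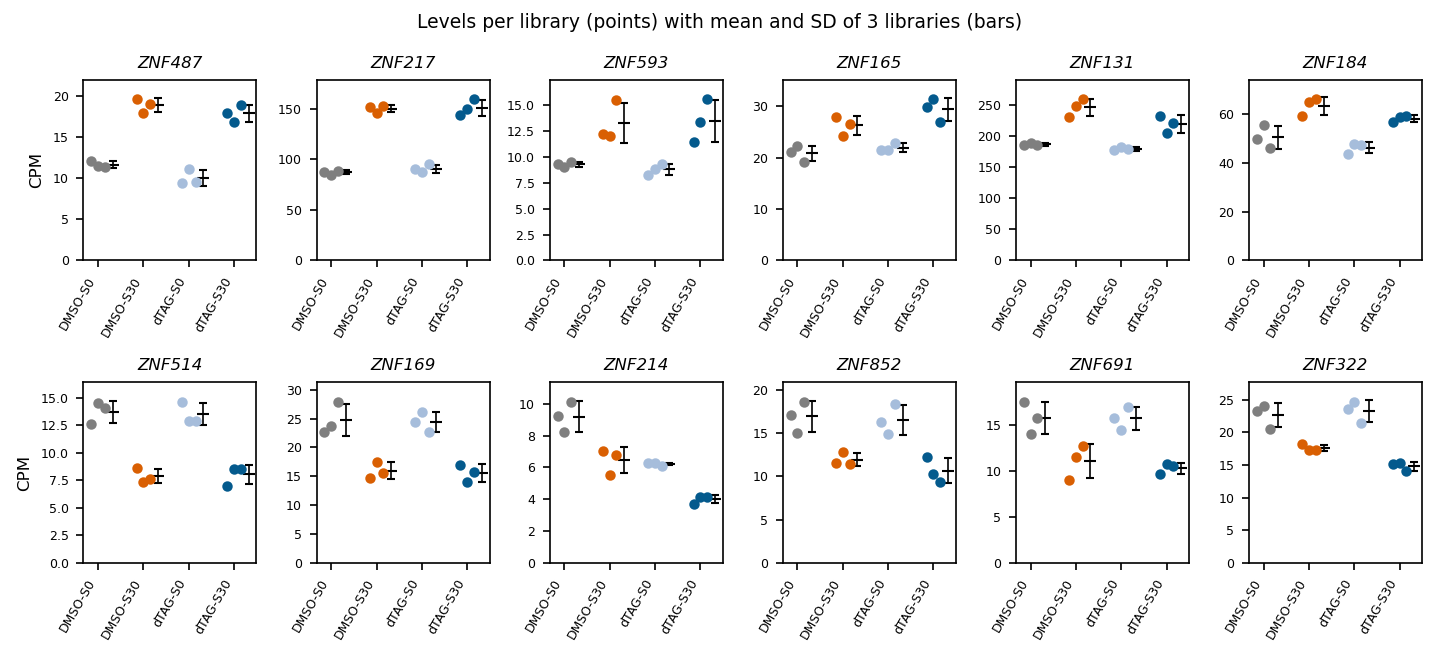
Levels in CPM (y axis, from 0) of the 6 members with the largest rises and the 6 with the largest falls, in each of the 12 libraries (points) with the mean and SD of the 3 libraries of a group (bars). In every panel the serum libraries of a treatment lie on one side of its libraries without serum, as the rule that picked these members required.

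Of the falls called in both treatments, that of ZNF514 (ENSG00000144026.11, chr2:95147330-95165413, minus strand), a KRAB-like gene, was the largest. ZNF514 has some cover by other rows on its own strand, over less than 50% of its length. Its levels were 12.6, 14.5 and 14.1 CPM in the DMSO-S0 libraries, 8.59, 7.36 and 7.63 in DMSO-S30, 14.7, 12.9 and 12.9 in dTAG-S0 and 7.003, 8.54 and 8.57 in dTAG-S30, so that serum libraries fell to between 7.00 and 8.59 CPM from 12.6 CPM or more. Log2 fold changes were -0.84 ± 0.11 (SE) under DMSO (edgeR adjusted p = 2.8e-06) and -0.72 ± 0.11 (SE) under dTAG (adjusted p = 1.76e-05). ZNF169 (ENSG00000175787.16, chr9:94259311-94301454, plus strand), also KRAB-like, had 22.7, 23.7 and 27.96 CPM in the DMSO-S0 libraries, 14.7, 17.5 and 15.6 in DMSO-S30, 24.5, 26.1 and 22.6 in dTAG-S0 and 16.9, 13.95 and 15.8 in dTAG-S30. The groups did not overlap, and log2 fold changes were -0.66 ± 0.100 (SE) under DMSO (edgeR adjusted p = 1.27e-05) and -0.63 ± 0.097 (SE) under dTAG (adjusted p = 1.88e-05).

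ZNF214 (ENSG00000149050.9, chr11:6999318-7020368, minus strand), a KRAB-like gene in the imprinted region of chromosome 11, had 9.22, 8.26 and 10.2 CPM in the DMSO-S0 libraries, 7.02, 5.51 and 6.81 in DMSO-S30, 6.25, 6.28 and 6.12 in dTAG-S0 and 3.73, 4.16 and 4.17 in dTAG-S30. It fell with serum in both treatments and, as given below, with dTAG. Log2 fold changes with serum were -0.53 ± 0.13 (SE) under DMSO (edgeR adjusted p = 0.00404) and -0.62 ± 0.14 (SE) under dTAG (adjusted p = 0.00205), and the DMSO call was lost without DMSO-S0 replicate 3 (adjusted p = 0.0523).

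The other 3 large falls were in genes with fingers only. ZNF852 (ENSG00000178917.15, chr3:44498970-44510636, minus strand) fell from 16.97 ± 1.81 to 11.9 ± 0.757 CPM (SD, n = 3) under DMSO and from 16.5 ± 1.75 to 10.7 ± 1.46 CPM under dTAG. ZNF691 (ENSG00000164011.17, chr1:42846573-42852477, plus strand) fell from 15.8 ± 1.78 to 11.1 ± 1.89 and from 15.8 ± 1.27 to 10.3 ± 0.607 CPM. ZNF322 (ENSG00000181315.10, chr6:26634383-26659752, minus strand) fell from 22.6 ± 1.83 to 17.6 ± 0.512 and from 23.2 ± 1.66 to 14.8 ± 0.65 CPM. Log2 fold changes in the 2 treatments were -0.52 and -0.62 for ZNF852, -0.44 and -0.65 for ZNF691 and -0.36 and -0.65 for ZNF322, with edgeR adjusted p-values between 2.93e-06 and 0.0043. With library sizes from the ERCC total, the ZNF322 call under DMSO was lost (adjusted p = 0.0550).

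Promoter sequences of members that moved together were read from RefSeq (GRCh38.p14), as the 250 bases before the annotated start, and 162 of 202 members matched by symbol. Letters of 5 motifs known from serum response or from GC-rich promoters were searched on both strands: the AP-1 site (TGANTCA), the CRE (TGACGTCA), the ETS site (CCGGAAG), the SP1 site (GGGGCGGGG) and the CArG box bound by SRF. Of the 6 members with a promoter that rose in both treatments, 0 held an AP-1 site or a CArG box, 1 held a CRE, 1 an ETS site and 2 an SP1 site. Among these 6, the RefSeq starts of ZNF217 and ZNF131 lie 16068 and 56285 bases inside the counted gene, and ZNF217 holds 1 of the 2 SP1 sites. Among the falls, the start of ZNF514 lies 5828 bases inside. Of the 30 with a promoter that fell in both, 1 held an AP-1 site, 0 a CRE or a CArG box, 6 an ETS site (20%) and 5 an SP1 site (16.7%). Over all 162 members the ETS site stood in 51 promoters (31.5%), where 15.3% of the promoters of genes tested and 8.82% of all 27305 promoters held it. The SP1 site stood in 22.8% of the members' promoters and 27.4% of those of genes tested, the AP-1 site in 4.32% and 3.86%, the CRE in 3.09% and 2.85%, and the CArG box in 0.617% and 1.09%. The shares over all 27305 promoters were 15.4%, 6.60%, 1.77% and 1.14% for these 4 motifs.

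The promoters of 2 genes that rose and 2 that fell are shown because each holds a searched motif and starts within 40 bases of the counted gene, with the motif letters in capitals and the 5′ to 3′ order of the gene. The windows are chr1:26169658-26169907 on the plus strand for ZNF593, chr6:27473106-27473355 on the minus strand for ZNF184, chr11:7020347-7020596 on the minus strand for ZNF214 and chr6:26659747-26659996 on the minus strand for ZNF322. Capitals mark the CRE in ZNF593 at 55 to 62 bases before the start, the SP1 and ETS sites in ZNF184 at 40 to 48 and 19 to 25 bases, and the SP1 site in ZNF214 at 46 to 54 and in ZNF322 at 90 to 98 bases, both read on the opposite strand. A match of letters is a description of the window.
ZNF593: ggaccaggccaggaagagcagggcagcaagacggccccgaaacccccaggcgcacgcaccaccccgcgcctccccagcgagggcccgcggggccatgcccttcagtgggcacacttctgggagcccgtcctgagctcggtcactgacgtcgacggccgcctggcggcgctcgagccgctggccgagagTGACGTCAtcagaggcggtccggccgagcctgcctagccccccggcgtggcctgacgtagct
ZNF184: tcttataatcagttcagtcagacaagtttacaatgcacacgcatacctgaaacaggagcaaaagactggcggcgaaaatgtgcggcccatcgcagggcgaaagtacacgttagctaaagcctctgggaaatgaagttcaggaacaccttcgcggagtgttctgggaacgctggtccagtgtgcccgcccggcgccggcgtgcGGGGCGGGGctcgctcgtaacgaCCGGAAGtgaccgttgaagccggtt
ZNF214: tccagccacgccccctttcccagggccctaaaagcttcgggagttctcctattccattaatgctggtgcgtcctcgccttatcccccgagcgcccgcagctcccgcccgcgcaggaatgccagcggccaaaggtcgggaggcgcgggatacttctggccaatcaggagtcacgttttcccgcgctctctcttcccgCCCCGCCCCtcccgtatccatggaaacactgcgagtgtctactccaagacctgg
ZNF322: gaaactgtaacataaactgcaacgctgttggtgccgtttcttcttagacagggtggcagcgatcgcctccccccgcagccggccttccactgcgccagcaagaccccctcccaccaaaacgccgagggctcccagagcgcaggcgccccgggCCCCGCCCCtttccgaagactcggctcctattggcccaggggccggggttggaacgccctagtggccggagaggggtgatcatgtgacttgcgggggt

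By protein class, 1 of 67 KRAB-like members rose with serum under DMSO and 23 fell, and 1 rose and 25 fell under dTAG. The medians were -0.17 and -0.16 on the log2 scale. Of the 125 with fingers only, 8 rose and 24 fell under DMSO and 6 rose and 32 fell under dTAG, with medians of -0.09 and -0.08. Of the 9 without a finger match, 1 rose (ZNF487) in both, and 1 (ZNF862) fell under DMSO and 3 fell under dTAG. Over all genes tested, 9.18% rose and 17.1% fell under DMSO and 9.09% and 15.4% under dTAG, against 1.49% and 34.3%, and 1.49% and 37.3%, of the KRAB-like members. The difference between classes was not tested. The 137 ZNF genes on chromosome 19 that passed the count minimum had 3 higher and 36 lower under DMSO and 3 and 31 under dTAG, with medians of -0.16 and -0.14.

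**Figure D4:**
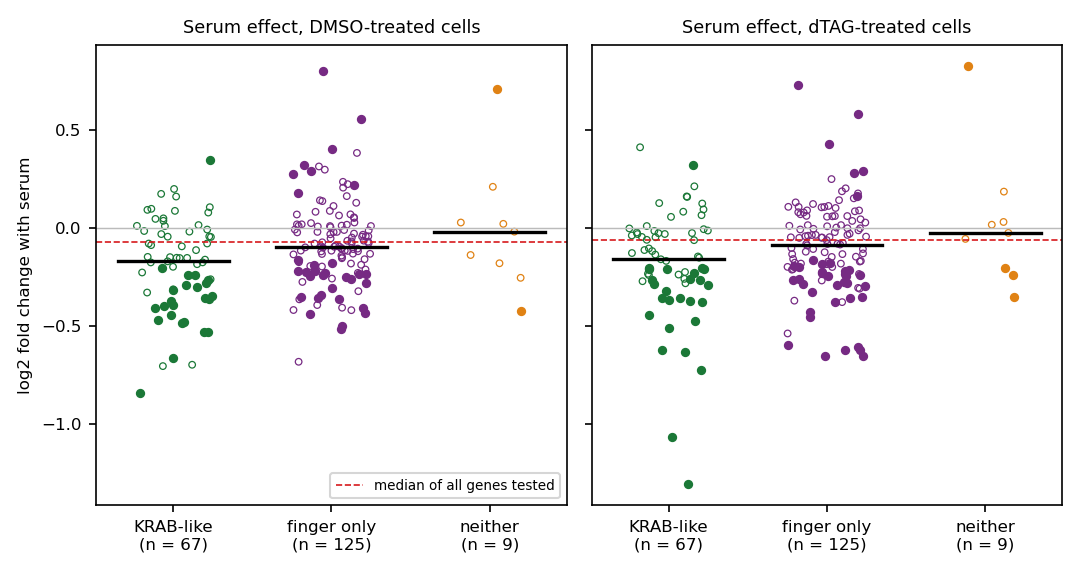
Log2 fold change with serum (y axis) of each member by protein class under DMSO (left) and under dTAG (right), filled where the adjusted p was under 0.05, with the class median (black bar) and the median of all 13093 genes tested (dashed line). The KRAB-like medians of -0.17 and -0.16 lie below the all-gene medians of -0.07 and -0.06.

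Level, taken as counts per kb of gene, moved with the serum effect in both treatments, and gene length chiefly under DMSO. Spearman's correlation of the fold change under DMSO was 0.32 with level and -0.22 with length over the 202 members, beside 0.31 and -0.21 over all genes tested. Under dTAG these were 0.26 and -0.05, beside 0.21 and -0.11. Members were also grouped by mean counts, which are not divided by gene length. Of the 67 members with the fewest counts (10.3 to 413.9), 2 rose and 13 fell under DMSO with a median of -0.18. Of the 67 between them (423 to 1003 counts), 3 rose and 18 fell with a median of -0.07. Of the 68 with the most counts (1036 to 10284), 5 rose and 18 fell with a median of -0.12. The medians thus did not move in 1 direction with the counts, which are another measure than the counts per kb above. Over all genes tested, 9.18% rose and 17.1% fell under DMSO. The median standard error was 0.12 in the group with the fewest counts and 0.065 in that with the most, so a change of the same size is called less readily in the former.

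Among the clusters, 10 of 15 held a member that fell under DMSO and 12 of 15 under dTAG, and 1 held a member that rose (ZNF487). The 10 members at chr7:149069643-149867479 had 5 falls under DMSO (ZNF786, ZNF425, ZNF398, ZNF282 and ZNF862), of which ZNF786, ZNF398 and ZNF862 also fell under dTAG, with medians of -0.15 and -0.20. The 10 members at chr16:30378106-31917357 had no call with serum in either treatment and medians of 0.05 and 0.09. Over all 71 clustered members, 1 rose and 18 fell under DMSO and 1 and 19 under dTAG, and of the 131 outside clusters 9 rose and 31 fell, and 7 and 42. The shares of all genes tested that rose and fell were 9.18% and 17.1% under DMSO and 9.09% and 15.4% under dTAG. Of the clustered members 25.4% and 26.8% fell, and of those outside clusters 23.7% and 32.1%.

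Members with known roles were taken from short lists, which were chosen with earlier results of these data known. Their counts are to be read beside the 9.18% of all genes that rose and 17.1% that fell under DMSO, and the 9.09% and 15.4% under dTAG. Of 7 ribosome and RNA genes, ZNF593 rose in both treatments, while ZNF326, a subunit of a complex that couples splicing to elongation, and ZNF346, a double-stranded RNA binder, fell in both. ZNF326 had 92.8, 92.7 and 92.9 CPM in the DMSO-S0 libraries, 82.5, 80.98 and 77.7 in DMSO-S30, 86.9, 95.1 and 90.2 in dTAG-S0 and 82.2, 79.6 and 68.1 in dTAG-S30, with log2 fold changes of -0.22 and -0.24 (edgeR adjusted p = 0.0149 and 0.00858). ZNF346 fell by 0.28 and 0.26 on the log2 scale. Both genes lost these calls in both treatments with ERCC library sizes, and under TMM scaling ZNF326 lost the call under DMSO and ZNF346 that under dTAG. The former was also lost in DESeq2 and without DMSO-S30 replicate 3 (adjusted p = 0.0758), and the latter without dTAG-S30 replicate 2 (adjusted p = 0.0857). ZNF638, an RNA-binding silencing factor and the member with the most counts, fell under dTAG alone (-0.16, adjusted p = 0.0343, against -0.12 and 0.143), and its interaction did not pass the test. That call held in 13 of 21 alternative fits and was lost under TMM scaling, with ERCC library sizes, in DESeq2, with no count filter, and without dTAG-S0 replicate 2, DMSO-S30 replicate 3 or dTAG-S30 replicate 2 or 3 (adjusted p up to 0.281). The ribosome quality control ligase ZNF598 (0.14 and 0.14), the ribosome assembly factor ZNF622 (0.00 and -0.08) and the spindle factor ZNF207 (-0.08 and -0.08) did not pass the test in either treatment.

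Of 10 corepressor and chromatin partners, 9 were members, 3 rose under DMSO and 2 of these under dTAG, and 0 fell, where 9.18% and 9.09% of all genes rose and 17.1% and 15.4% fell. Beside ZNF217, ZNF644, a partner of the G9a and GLP methyltransferases, had 266, 287 and 265 CPM in the DMSO-S0 libraries, 304, 324 and 327 in DMSO-S30, 262, 274 and 256 in dTAG-S0 and 311, 283 and 290.4 in dTAG-S30. Its fold changes were small, at 0.22 and 0.16 (edgeR adjusted p = 0.0094 and 0.0435), and the call under DMSO was lost without DMSO-S0 replicate 3 or DMSO-S30 replicate 2 or 3 (adjusted p up to 0.0607). That under dTAG held in 13 of 21 alternative fits and was lost with ERCC library sizes and without any 1 of 7 libraries: DMSO-S0 replicate 1, DMSO-S30 replicates 2 and 3, dTAG-S0 replicates 1 and 3, and dTAG-S30 replicates 1 and 3 (adjusted p up to 0.192). ZNF687, of the ZMYND8 complex, rose under DMSO (0.29, adjusted p = 0.00939) and had 0.15 under dTAG (adjusted p = 0.175). Its relatives in that complex, ZNF592 (-0.12 and -0.05) and ZNF532 (-0.04 and 0.13), did not pass, nor did ZNF516 (-0.04 and 0.06), ZNF518A (-0.13 and -0.11), ZNF518B (-0.12 and -0.13) or the telomere-linked NuRD partner ZNF827 (-0.12 and -0.05).

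Of 7 promoter-binding factors, ZNF131 rose in both treatments, ZNF281 rose under DMSO (0.18, adjusted p = 0.0473, lost without DMSO-S0 replicate 3 or without any 1 of the 3 DMSO-S30 libraries) and its relative ZNF148 fell there (-0.16, adjusted p = 0.0387, held in 14 of 21 alternative fits). The ZNF148 call was lost under TMM scaling, with ERCC library sizes, in DESeq2, with no count filter, and without DMSO-S0 replicate 2 or DMSO-S30 replicate 2 or 3 (adjusted p up to 0.603). The related activators ZNF143 (0.07 and 0.10) and ZNF76 (0.02 and 0.08), ZNF24 (0.01 and -0.04) and ZNF384 (0.01 and 0.07) did not pass. Of 7 KRAB genes with textbook roles, 4 were members. ZNF202, a repressor of lipid metabolism genes, had 41.98, 43.2 and 44.003 CPM in the DMSO-S0 libraries, 30.9, 32.9 and 33.8 in DMSO-S30, 40.01, 41.6 and 44.4 in dTAG-S0 and 32.4, 31.9 and 34.2 in dTAG-S30, and fell by 0.40 and 0.36 on the log2 scale (edgeR adjusted p = 0.000121 and 0.000335), and kept both calls in each alternative fit. ZNF445, which acts at imprinted genes (-0.15 and -0.03), ZNF394 (0.07 and -0.05) and ZNF268 (0.16 and -0.13) did not pass. Neither did ZNF703 (0.03 and -0.03) and ZNF503 (0.21 and 0.18) of the NET family of developmental repressors.

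Exposure to dTAG for 8 h, a partial depletion of KAP1, changed few members. Without serum, 1 member rose and 2 fell with dTAG, where 0.855% of all genes rose and 0.451% fell. With serum, again 1 rose and 2 fell, where 0.596% and 0.634% of all genes did. The genes were the same in the 2 comparisons, which share no library but come from the 1 fit to all 12 libraries. ZNF692 rose, and ZNF214 and ZNF462 fell. Across the 202 members the 2 sets of dTAG fold changes had a Pearson correlation of 0.23 and a Spearman correlation of 0.41. Over all genes tested the Pearson correlation was 0.26. The median log2 fold change of the members was -0.03 without serum and -0.02 with it, beside -0.01 and 0.00 for all genes, and with ERCC library sizes the first became 0.0044, beside 0.02 for all genes. Averaged over both serum levels, which uses 6 libraries a side and the same libraries again, 2 members rose and 4 fell, where 2.21% and 2.25% of all genes did, and ZNF827, ZNF518B and ZNF33B joined the 3. When 1 library was left out there were 1 to 3 falls without serum, 0 to 4 with it and 4 to 8 in the averaged comparison, and 1, 0 to 1 and 1 to 5 rises. In either direction 1.49%, 1.49% and 2.97% of the members were called, beside 1.31%, 1.23% and 4.47% of all genes.

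ZNF214, a KRAB-like gene, fell by 0.57 without serum (SE 0.13, edgeR adjusted p = 0.0181) and by 0.66 with it (SE 0.15, adjusted p = 0.0154) on the log2 scale. Its 6.12 to 6.28 CPM in dTAG-S0 lay below every DMSO-S0 library, and its 3.73 to 4.17 CPM in dTAG-S30 below every DMSO-S30 library, so that the lowest values of all came with both serum and dTAG. The call without serum was lost when DMSO-S0 replicate 1 or 3, or dTAG-S0 replicate 1 or 3, was left out, with adjusted p-values up to 0.0812. That with serum was lost without DMSO-S30 replicate 3 or dTAG-S30 replicate 1, with values up to 0.0976.

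ZNF462 (ENSG00000148143.12, chr9:106863097-107013634, plus strand) encodes a very long multi-finger protein of embryonic chromatin. It had 45.3, 44.8 and 50.4 CPM in the DMSO-S0 libraries, 45.9, 41.5 and 45.01 in DMSO-S30, 37.4, 37.02 and 35.6 in dTAG-S0 and 34.7, 35.5 and 36.7 in dTAG-S30. Each of the 6 libraries with dTAG was lower than each of the 6 with DMSO. The log2 fold changes were -0.36 ± 0.068 (SE) without serum (edgeR adjusted p = 0.00408) and -0.29 ± 0.071 with it (adjusted p = 0.0346), and the second was lost in 5 of 12 fits that leave out 1 library (any DMSO-S30 library, or dTAG-S30 replicate 1 or 2), with adjusted p-values up to 0.191.

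ZNF692 (ENSG00000171163.15, chr1:248850006-248859144, minus strand), also called AREBP, had 30.4, 26.6 and 27.5 CPM in the DMSO-S0 libraries, 24.6, 24.7 and 25.3 in DMSO-S30, 36.1, 38.1 and 36.6 in dTAG-S0 and 36.9, 31.3 and 29.6 in dTAG-S30. Within each serum level the dTAG libraries lay above the DMSO libraries. Log2 fold changes were 0.39 ± 0.082 (SE) without serum (edgeR adjusted p = 0.01) and 0.39 ± 0.084 with it (adjusted p = 0.0149). The call with serum was lost without DMSO-S30 replicate 2, DMSO-S30 replicate 3 or dTAG-S30 replicate 1 (adjusted p up to 0.127). With ERCC library sizes the 3 genes lost their calls at both serum levels, apart from ZNF214 with serum. In the averaged comparison, which uses the same libraries again, the log2 change was 0.39 for ZNF692 (edgeR adjusted p = 7.19e-05). It was -0.62 for ZNF214 (adjusted p = 0.00013) and -0.33 for ZNF462 (adjusted p = 6.85e-05). These averaged calls held in all 20 alternative fits.

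The genes called in the averaged comparison alone changed less. ZNF518B, a relative of the G9a partners, had 84.4 ± 5.77 and 79.1 ± 7.77 CPM (SD, n = 3) with DMSO and 70.3 ± 3.301 and 63.8 ± 6.605 CPM with dTAG, a log2 change of -0.29 (edgeR adjusted p = 0.00129). ZNF33B, a KRAB-like gene, had 102 ± 3.14 and 89.9 ± 1.74 CPM with DMSO and 92.8 ± 2.400 and 78.4 ± 2.47 CPM with dTAG, a change of -0.17 (adjusted p = 0.00927). ZNF827 rose from 127 ± 9.11 and 119 ± 2.39 to 139 ± 1.64 and 133 ± 6.71 CPM, a change of 0.15 (adjusted p = 0.0287), which was lost without DMSO-S30 replicate 2, DMSO-S30 replicate 3 or dTAG-S30 replicate 1. With ERCC library sizes ZNF33B and ZNF827 lost their calls.

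**Figure D5:**
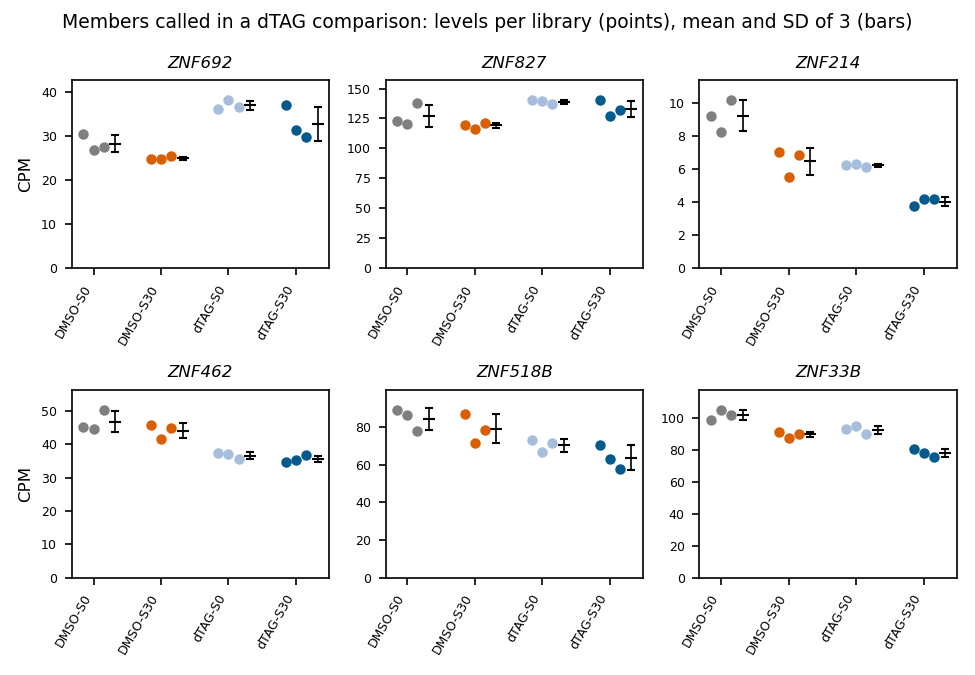
Levels in CPM (y axis, from 0) of the 6 members called in a dTAG comparison, in each of the 12 libraries (points) with the mean and SD of the 3 libraries of a group (bars). ZNF692 and ZNF827 lie higher in the dTAG groups than in the DMSO groups of the same serum level on average, and the other 4 lie lower, with ZNF214 lowest in dTAG-S30 at 3.73 to 4.17 CPM.

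Of the 67 KRAB-like members, 0 rose and 1 fell (ZNF214) with dTAG at each serum level, and 0 rose and 2 fell (ZNF214 and ZNF33B) in the averaged comparison, with medians of -0.04, -0.02 and -0.02. At an unadjusted p under 0.05 there were 7, 6 and 9 of them (10.4%, 8.96% and 13.4%), where 11.7%, 10.4% and 17.7% of all genes tested had such a p. No clustered member passed the test at either serum level. The standard errors set what could be seen: over members their median was 0.12, 0.080 and 0.063 without serum in the members with few, intermediate and many counts. Of 13 genes for KAP1 and its known partners, 0 rose and 3 fell with dTAG in all 3 comparisons, where 0.451%, 0.634% and 2.25% of all genes fell. This list was chosen with earlier results of these data known, so its share is a description. Alternative fits are not given here for these genes. ATF7IP, which guards SETDB1, changed by -0.41 and -0.39 without and with serum. MORC2, which works with the HUSH silencing complex, changed by -0.52 and -0.54, and TASOR, a subunit of that complex, by -0.27 and -0.38. The edgeR adjusted p-values of the 3 genes ran from 6.44e-05 to 0.00954. SETDB1 (-0.10 and -0.05) and TRIM28 (-0.06 and -0.04) did not pass.

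Whether dTAG changed the serum effect was tested as an interaction. None of the 202 members passed the edgeR test, where 0.0382% of all genes (5 of 13093) did, 3 members had an unadjusted p under 0.05 (3.16% of all genes did), and DESeq2 also called 0. The 3 were ZNF268, ZNF343 and ZNF322. ZNF268, which is covered over 62.7% of its length by another row on the same strand, had 35.03, 34.3 and 31.7 CPM in the DMSO-S0 libraries, 36.9, 35.3 and 39.6 in DMSO-S30, 36.3, 33.3 and 34.6 in dTAG-S0 and 30.6, 33.9 and 31.5 in dTAG-S30. Its serum effect was 0.16 under DMSO and -0.13 under dTAG, a difference of -0.29 ± 0.11 (SE, edgeR adjusted p = 0.9999). ZNF343 had counts of 10, 15 and 7 in DMSO-S0, 9, 14 and 10 in DMSO-S30, 22, 19 and 22 in dTAG-S0 and 7, 12 and 6 in dTAG-S30. Its interaction was -1.31 ± 0.58 on so few counts, and its serum call under dTAG (-1.30, adjusted p = 0.0135) was lost without dTAG-S30 replicate 1 or 3. ZNF322, named for this p after its values were seen, had an interaction of -0.29 ± 0.13.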

How the data were processed

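RNA-Seq was done on 12 libraries of ribosomal RNA-depleted total RNA with ERCC spike-ins. The authors trimmed reads with Trim Galore 0.6.4 after FastQC 0.11.8, mapped them to hg38 with STAR and counted them with featureCounts (Subread 1.6.3) over whole protein-coding genes, introns included. The table they deposited holds raw read counts for genes and for ERCC transcripts, so unspliced RNA adds to each value, more so in long genes. The strand setting and the treatment of reads on overlapping genes are not given in the sources used here.

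A gene was tested if 6 or more libraries had 10 or more counts (13093 genes, with 69 of 92 ERCC transcripts). Counts were scaled by the upper quartile, the ERCC transcripts gave 1 factor of unwanted variation (RUVg algorithm, computed directly), and 4 groups plus the factor were fitted to all 12 libraries in edgeR 4.0.16 (R 4.3.3) with the two-sided quasi-likelihood F-test. Benjamini-Hochberg adjustment ran over all genes tested, and a call is an adjusted p under 0.05. The factor of unwanted variation was 0.714 in DMSO-S0 replicate 1 and between -0.417 and 0.308 in the other libraries. Levels in CPM use the scaled library size. Libraries held 18658747 to 23861254 gene counts. Errors cover the spread between libraries, and duplicates cannot be told from separate molecules. The study calls the 3 libraries of a group biological replicates.

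Members named are the 6 largest rises and falls with serum called in both treatments with no overlap of libraries in either, up to 4 in each direction per dTAG comparison, the 2 smallest interaction p-values, lists of genes with known roles, and the 3 most and 3 least abundant per kb. The members and lists were chosen with earlier results of these data known. Protein classes come from letter patterns in GENCODE 44 canonical transcripts, translated, since RefSeq proteins were not used here; neither annotation is known to be the authors' own. Cover by other rows uses the positions in the table, with starts given from 1. Promoters and their build are RefSeq's. The fit was also run on counts simulated from its own means and spread, with changes planted in the DMSO-S30 libraries alone. The outcome is not given here, and the dTAG and interaction tests were not part of that run. Alternatives were TMM scaling, ERCC library sizes, no factor, DESeq2 1.42.0, a likelihood ratio test, other count filters, fits on 6 libraries, a replicate block and leaving out each library. Of 18 pairs of libraries with the same replicate number in different groups, correlations of deviations ran from -0.153 to 0.139, so the numbers were not taken to pair samples.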

Additional observations from a re-analysis of the deposited data

How the results depend on the processing

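Over all alternatives, no call on a named member changed sign. Under TMM scaling without the factor, 18 members rose with serum under DMSO (median log2 change -0.0289), and 17 rose and 35 fell under dTAG (median -0.054), while the dTAG median without serum was -0.0179. In DESeq2, 16 rose with serum under DMSO (median -0.0363), 15 rose and 38 fell under dTAG (median -0.0629), 4 fell with dTAG in the presence of serum, and the dTAG median without serum was -0.0183. With ERCC library sizes, 16 fell with serum under DMSO (median -0.0389) and 20 under dTAG (median -0.0759). In the same setting 0 rose and 0 fell with dTAG without serum (median 0.00438), 0 rose and 1 fell with serum, 1 rose in the averaged comparison (median -0.0109), and the interaction median was -0.0230. With no count filter (242 ZNF rows) the serum medians were -0.0902 and -0.0981 and 4 members fell with dTAG in the presence of serum. With 10 counts required in all 12 libraries (199 members) the serum median under dTAG was -0.109. Fits on the 6 libraries compared gave 15 rises with serum under dTAG and 4 falls with dTAG in the presence of serum. For these shifts the cause was not tested.

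Leaving out 1 library gave, with serum under DMSO, 7 to 14 rises, 44 to 62 falls and medians from -0.122 to -0.106, and under dTAG 7 to 15 rises, 41 to 69 falls and medians from -0.123 to -0.104. The rises under dTAG were 14, 15 and 15 without DMSO-S0 replicates 1, 2 and 3 and 14 without DMSO-S30 replicate 1, none of which is in that comparison. With dTAG there were 1 rise and 1 to 3 falls without serum (medians -0.0330 to -0.0191; 1 fall without DMSO-S0 replicate 1, dTAG-S0 replicate 1 or dTAG-S0 replicate 3). With serum there were 0 to 1 rises and 0 to 4 falls (medians -0.0372 to -0.00631), with 0 rises without DMSO-S30 replicate 2 or 3, 4 falls without DMSO-S0 replicate 1, 1 fall when dTAG-S30 replicate 2 was left out and 0 falls when DMSO-S30 replicate 3 was. The averaged comparison had 1 to 5 rises and 4 to 8 falls (medians -0.0339 to -0.0200), with 8 falls without DMSO-S0 replicate 3, 5 rises and 7 falls without DMSO-S30 replicate 1, 7 falls without dTAG-S30 replicate 1 and 1 rise without DMSO-S30 replicate 2 or 3. The interaction had 0 calls throughout and medians from -0.0109 to 0.0199. With the replicate block, 11 members rose and 51 fell with serum under DMSO, 9 and 61 under dTAG, and 1 rose and 3 fell with dTAG at each serum level. Low counts limit the precision of members such as ZNF521, ZNF343 and ZNF454, and calls near the threshold move with single libraries.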

Other observations

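Other zinc finger genes outside chromosome 19 carry ZBTB, ZKSCAN or ZSCAN names, for their BTB, KRAB with SCAN, or SCAN domains, and 52 of them were tested. With serum 4 rose and 14 fell under DMSO and 4 rose and 13 fell under dTAG, with medians of -0.10 and -0.10 on the log2 scale, where 9.18% of all genes tested rose and 17.1% fell, and 9.09% and 15.4%. With dTAG 0 rose and 1 fell without serum, and 0 changed with serum by edgeR, where 2 (3.85%) had an unadjusted p under 0.05, beside 10.4% of all genes tested. Of all genes, 0.855% rose and 0.451% fell without serum.

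On chromosome 19, 137 of 252 ZNF rows passed the count minimum, beside 202 of 256 outside it. Of these, 0 passed the edgeR test with dTAG at either serum level (11 and 8 at an unadjusted p under 0.05, or 8.03% and 5.84%, beside 11.7% and 10.4% of all genes), and 1 rose and 2 fell in the averaged comparison, where 2.21% and 2.25% of all genes did. Of the chromosome 19 rows, 42 are covered over at least 80% of their length by other rows on the same strand, of which 5 passed the count minimum, against 20 rows outside chromosome 19, of which 2 passed.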
